A study of Rattus norvegicus with 10 samples.

Results

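The 5 genes followed here were Cd44, which encodes the hyaluronan receptor CD44, then Msn, Ezr and Rdx, which encode moesin, ezrin and radixin, and lastly Nf2, which encodes merlin. They were taken from a table of messenger RNA counts in rat hippocampus, and their rows were selected on the mean count over all rats, the highest one to be used where a symbol had more than 1 RNA record. Each of the 5 genes had exactly 1 record, so that they are 5 of 16610 gene symbols and 5 of 32041 RNA records in the table. The study itself named Cd44 and Msn as upregulated after injury from libraries of this experiment, so their difference between groups is described below and is not independent evidence of its direction. Ezr, Rdx and Nf2 were added as relatives of Msn.

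All animals were adult male Sprague-Dawley rats weighing 330 to 371 g at surgery. In the TBI (traumatic brain injury) group (n = 5), a fluid pulse of 3.32 atm was delivered to the dura over the left parietal lobe under anaesthesia, a model known as lateral fluid percussion. The sham group (n = 5) underwent the same anaesthesia and craniectomy without the pulse. Tissue holding CA3 and the dentate gyrus of the left hippocampus was taken 3 months later and each rat was processed on its own. The injured rats of this cohort were not reported rat by rat as epileptic or not, so the TBI group is one of injury and not of proven epilepsy.

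CD44 spans the membrane of astrocytes, microglia and leukocytes, binds hyaluronan outside the cell and attaches to the cytoskeleton inside it. The attachment runs through the ERM proteins ezrin, radixin and moesin, which fold on themselves in the cytosol and open when they meet the membrane lipid PIP2 and are phosphorylated by kinases such as ROCK. An open ERM protein holds a membrane protein with its FERM domain and an actin filament with its tail. Merlin shares the FERM domain and competes for CD44, but lacks the actin-binding tail and acts as a tumour suppressor upstream of the Hippo kinases. In brain, moesin is known from microglia and endothelium, ezrin from astrocyte processes and radixin from several cell types.

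The libraries held between 23425817 and 31671838 counts on RNA records. Ribosomal RNA records took 12.5% to 26.2% of counts in 8 libraries, but 59.0% in sham 4 and 58.5% in sham 5, which left 12686398 counts on other records in the shallowest library. Values are given below in CPM, the count of a gene scaled to a common library size, which was set by TMM, a trimmed mean of ratios between libraries. CPM was not divided by transcript length, so that levels of different genes cannot be ranked. In a homogenate, fewer cells of a type and less RNA per cell cannot be told apart. The neuronal markers Snap25, Tubb3 and Map2 were present in every library, as were the CA3 markers Cpne4, Spock1 and Grik4. The dentate granule cell markers Prox1 and C1ql2 were lowest in sham 1, in which the summed list reached 43.2 CPM against 59.3 to 164 CPM in the other rats. Markers of CA1, a field that was not to be sampled, summed to 295 CPM in TBI 1 and 501 CPM in TBI 2, against 48.0 to 192 CPM in the other 8 rats.

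The 3 ERM genes differ in the sequence before their start sites, and the 250 bases upstream are shown for each so that relatives with unlike values can be set side by side. Sequences are those of RefSeq on the GRCr8 assembly, which is not the rn4 assembly of the reads, and run 5′ to 3′ on the strand of the gene. Capitals mark matches to the GC box GGGCGG or the YY1 motif GCCATNTT on either strand, motifs that were picked after the sequences had been read. The Msn window lies at chrX:65005296-65005545 on the plus strand, the Ezr window at chr1:49416574-49416823 on the minus strand and the Rdx window at chr8:61275542-61275791 on the plus strand.
Msn: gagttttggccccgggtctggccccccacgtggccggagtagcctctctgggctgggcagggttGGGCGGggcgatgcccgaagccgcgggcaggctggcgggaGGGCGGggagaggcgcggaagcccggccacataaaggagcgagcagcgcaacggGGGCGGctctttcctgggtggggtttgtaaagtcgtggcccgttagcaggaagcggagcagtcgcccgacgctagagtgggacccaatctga
Ezr: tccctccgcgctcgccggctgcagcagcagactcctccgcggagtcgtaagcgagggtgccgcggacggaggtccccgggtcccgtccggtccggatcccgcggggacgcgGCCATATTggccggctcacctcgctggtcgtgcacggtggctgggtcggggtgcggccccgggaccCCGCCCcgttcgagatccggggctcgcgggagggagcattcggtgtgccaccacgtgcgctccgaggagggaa
Rdx: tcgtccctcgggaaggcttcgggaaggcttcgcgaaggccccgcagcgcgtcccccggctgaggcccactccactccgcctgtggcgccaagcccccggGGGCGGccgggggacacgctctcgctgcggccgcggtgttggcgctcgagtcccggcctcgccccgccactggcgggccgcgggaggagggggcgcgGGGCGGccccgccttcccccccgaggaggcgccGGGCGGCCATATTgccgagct

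All 3 windows were rich in G and C, at 69.6% for Msn, 74.4% for Ezr and 79.2% for Rdx, against a median of 51.2% over 33469 RefSeq promoter windows of the same length. The GC box occurred 3 times before Msn, 3 times before Rdx and 1 time before Ezr, and 30.5% of all windows held at least one. The YY1 motif was found before Ezr and before Rdx and not before Msn, and 4.23% of all windows held it. In Rdx it shares a base with the GC box nearest to the start. The window of Cd44 (60.8% G and C) lies wholly within the annotated gene, and that of Nf2 (60.4%) overlaps its gene in part. They are not printed. The Cd44 window held none of the 4 motifs searched and the Nf2 window held 2 overlapping GC boxes. Neither the AP-1 motif TGANTCA (6.34% of all windows) nor the TEAD motif CATTCC (12.1%) was present in any of the 5 windows. These are matches of letters, and nothing is read from them about any factor.

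Cd44 was the gene with the largest difference of the 5. In the sham rats 1 to 5 it was measured at 2.68, 5.82, 5.04, 3.53 and 4.00 CPM, and in the TBI rats 1 to 5 at 12.1, 8.25, 4.02, 5.50 and 5.88 CPM. TBI 1 and TBI 2 stood above the rest, TBI 5 was barely above the highest sham rat, and TBI 3 and TBI 4 lay within the sham range, so that the groups overlapped. The mean was 4.21 ± 1.24 CPM (SD, n = 5) in sham and 7.14 ± 3.14 CPM (SD, n = 5) in TBI. The fitted fold was 1.68, a log2 change of 0.75 (standard error 0.316) and a 95% interval of 0.05 to 1.45. By edgeR's quasi-likelihood method the unadjusted p was 0.0390, and 0.620 after Benjamini-Hochberg adjustment over all 22431 rows. The depth behind these values was small, at 52 to 416 counts per library, with 52 and 64 counts in sham 4 and sham 5.

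The size of the Cd44 difference moved most with TBI 1. Without TBI 1 the log2 change was 0.48 (edgeR's quasi-likelihood test, unadjusted p = 0.0651), the lowest value when any 1 rat was omitted. The unadjusted p also passed above 0.05 without sham 1 (0.0939), sham 4 (0.0760), sham 5 (0.0729) or TBI 2 (0.0772), while the log2 change was 0.60, 0.70, 0.73 and 0.69 in the same order. Without TBI 3 the log2 change was 0.90 and the unadjusted p 0.00770. With the ribosomal RNA share of each library as a covariate it was 0.115, at a log2 change of 0.72, and without sham 4 and sham 5 it was 0.129, at a log2 change of 0.67.

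Msn, the gene of moesin, was measured at 7.61, 8.08, 11.6, 7.20 and 7.12 CPM in the sham rats 1 to 5. In the TBI rats 1 to 5 it was measured at 17.1, 14.6, 8.92, 11.5 and 11.5 CPM. In sham, 4 of the 5 rats lay below every TBI rat, and sham 3 lay among the injured rats, just above TBI 4 and TBI 5. The mean was 8.32 ± 1.87 CPM (SD, n = 5) in sham and 12.7 ± 3.16 CPM (SD, n = 5) in TBI. The fitted fold was 1.51, a log2 change of 0.60 (standard error 0.173) and a 95% interval of 0.23 to 0.97. By edgeR's quasi-likelihood method the unadjusted p was 0.00365, and 0.483 when adjusted over all rows. The counts behind these values were 106 to 589 per library.

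Msn kept its direction and an unadjusted p under 0.05 in each of the 20 alternative fits. Leaving out 1 rat at a time gave log2 changes from 0.47 without TBI 1 to 0.76 without sham 3. The log2 change was 0.49 with the ribosomal RNA share as a covariate (edgeR's quasi-likelihood test, unadjusted p = 0.0407) and 0.49 without sham 4 and sham 5 (unadjusted p = 0.0305). No fit brought its adjusted p under 0.05, and the lowest among those that left out a rat was 0.0680, without sham 3.

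**Figure D1:**
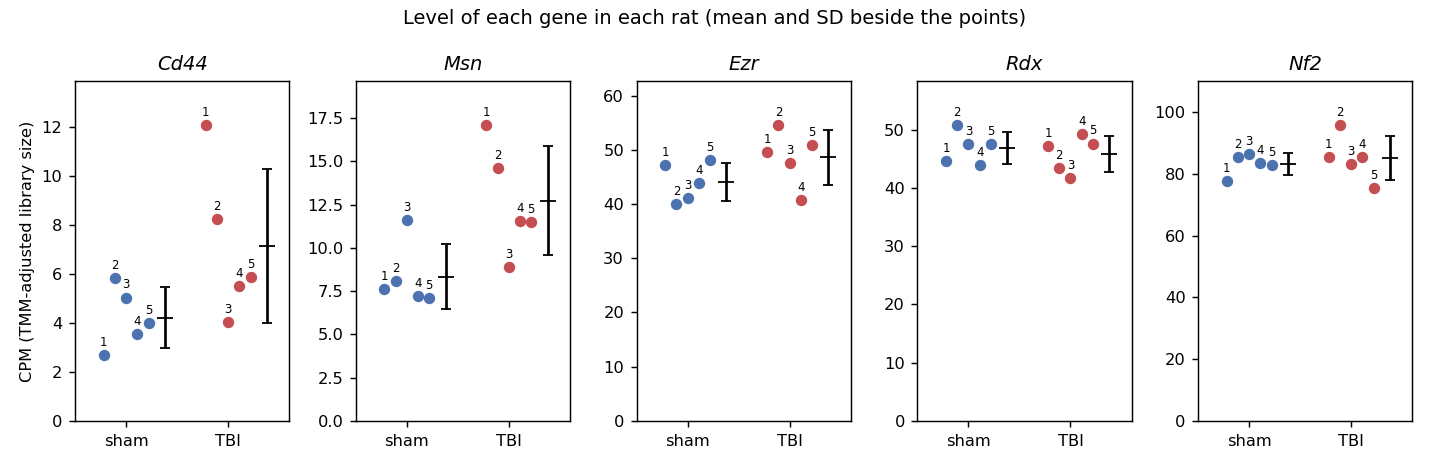
Level of Cd44, Msn, Ezr, Rdx and Nf2 in each rat, in CPM of the TMM-adjusted library size, with sham rats in blue and TBI rats in red, the replicate number above each point, and the mean with its SD to the right of each group. TBI 1 and TBI 2 are the highest rats for Cd44 (12.1 and 8.25 CPM) and for Msn (17.1 and 14.6 CPM), while the groups overlie each other for Rdx and Nf2.

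Ezr, the gene of ezrin, was measured at 47.2, 40.0, 41.2, 43.8 and 48.2 CPM in sham and at 49.5, 54.5, 47.5, 40.8 and 50.9 CPM in TBI. In TBI, 3 rats were above every sham rat, whereas TBI 4 was near the lowest sham rat. The mean was 44.1 ± 3.59 CPM in sham and 48.7 ± 5.07 CPM in TBI (SD, n = 5 each), a log2 change of 0.14 (standard error 0.0858) and a 95% interval of -0.04 to 0.32. The unadjusted p was 0.109 and the adjusted p over all rows 0.723 by edgeR's quasi-likelihood method. Without TBI 4 the log2 change was 0.20 and the unadjusted p 0.0291 in the same test. A pseudogene of Ezr exists in the RefSeq annotation, and how reads shared with it were counted is not given in the sources used here.

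Rdx, the gene of radixin, was measured at 44.6, 50.7, 47.5, 44.0 and 47.5 CPM in sham and at 47.2, 43.4, 41.8, 49.2 and 47.6 CPM in TBI. Its groups overlapped over most of their range. The log2 change was -0.03 (standard error 0.0744), and the 95% interval of -0.19 to 0.12 leaves room for a modest change in either direction. The unadjusted p was 0.671 and the adjusted p 0.946 by edgeR's quasi-likelihood method.

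Nf2, the gene of merlin, was measured at 77.7, 85.6, 86.5, 83.4 and 82.8 CPM in sham and at 85.6, 95.7, 83.3, 85.6 and 75.6 CPM in TBI. TBI 2 held the highest value and TBI 5 the lowest, so that the TBI group enclosed the sham group. The log2 change was 0.03 (standard error 0.0751) and its 95% interval ran from -0.12 to 0.19. The unadjusted p was 0.660 and the adjusted p 0.944 by edgeR's quasi-likelihood method.

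The genes also differed in how far rats of 1 group were apart. The coefficient of variation was 29.3% in sham and 44.0% in TBI for Cd44, and 22.5% and 24.9% for Msn. It was between 4.13% and 10.4% in both groups for Ezr, Rdx and Nf2. Cd44 and Msn also had the fewest counts of the 5 genes.

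Across the table, edgeR's quasi-likelihood method gave an adjusted p under 0.05 to 0 of 22431 rows tested (0%), the lowest being 0.477. DESeq2 called 3 rows, and edgeR's exact test and limma voom called 0. The unadjusted p was under 0.05 for 1769 rows (7.89%), of which 1097 (4.89% of those tested) were higher in TBI. All 5 genes passed the filter on low counts. Of the 5, 0 passed the adjusted threshold in any of these tests and 2, Cd44 and Msn, had an unadjusted p under 0.05 by edgeR's quasi-likelihood method, both higher in TBI. Because Cd44 and Msn were chosen with their difference known, nothing is read from this share. The median log2 change was 0.14 over the 5 genes and -0.01 over all rows tested.

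The ratio of 2 genes within a library does not depend on how libraries are scaled, and 4 ratios were tested by exact permutation of all rats between the groups (two-sided). Transcript length enters each ratio, so that only its change can be read. The ratio of Msn to Rdx was 0.172, 0.160, 0.245, 0.165 and 0.151 in sham and 0.362, 0.338, 0.215, 0.236 and 0.242 in TBI. Apart from sham 3, every sham rat was below every TBI rat. The ratio was 1.55-fold higher in TBI, a log2 difference of 0.63 (exact permutation p = 0.0317; 0.127 when adjusted over the 4 ratios), and so did not pass the correction.

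The log2 ratio of Msn to Ezr was higher in TBI by 0.46 (exact permutation p = 0.0794; adjusted p = 0.159). That of Ezr to Rdx was higher by 0.17 (exact permutation p = 0.183; adjusted p = 0.243), and that of Cd44 to Msn by 0.10 (exact permutation p = 0.643; adjusted p = 0.643). The groups overlapped in all 4 ratios. The smallest p that this design allows is 0.00794.

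Of the 10 pairs among the 5 genes, Cd44 and Msn had the highest correlation from rat to rat. With the mean of each group removed, the log2 CPM of Cd44 and Msn correlated over the 10 rats with r = 0.807 (exact permutation of rats within groups, p = 0.0126; 0.126 when adjusted over the 10 pairs of genes). Spearman's rho was 0.685 (exact permutation p = 0.0487; adjusted p = 0.302), so the relation did not pass the correction. Pearson's r was 0.591 without TBI 1 and TBI 3, the rats farthest from the median in Cd44. When any 1 rat was left out it ran from 0.705 to 0.883. Taking out the extremes of 1 gene tends to lower r in itself, so how far the relation leaned on TBI 1 and TBI 3 cannot be told. In TBI 1 both genes were far above their group mean and in TBI 3 both were far below it, whereas sham 2 held the highest Cd44 of its group with Msn close to the group mean.

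No other pair of the 5 genes passed the correction either. Rdx and Cd44 gave r = 0.515, Nf2 and Cd44 0.511, and Nf2 and Msn 0.463, each with an adjusted exact permutation p of 0.466. Spearman's rho of Nf2 and Msn was 0.661 (exact permutation p = 0.0605; adjusted p = 0.302). Ezr gave r = -0.0129 against Cd44, 0.0125 against Msn and -0.512 against Rdx. The adjusted exact permutation p was 0.466 for Ezr and Rdx and 0.977 for the other 2 of these pairs.

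**Figure D2:**
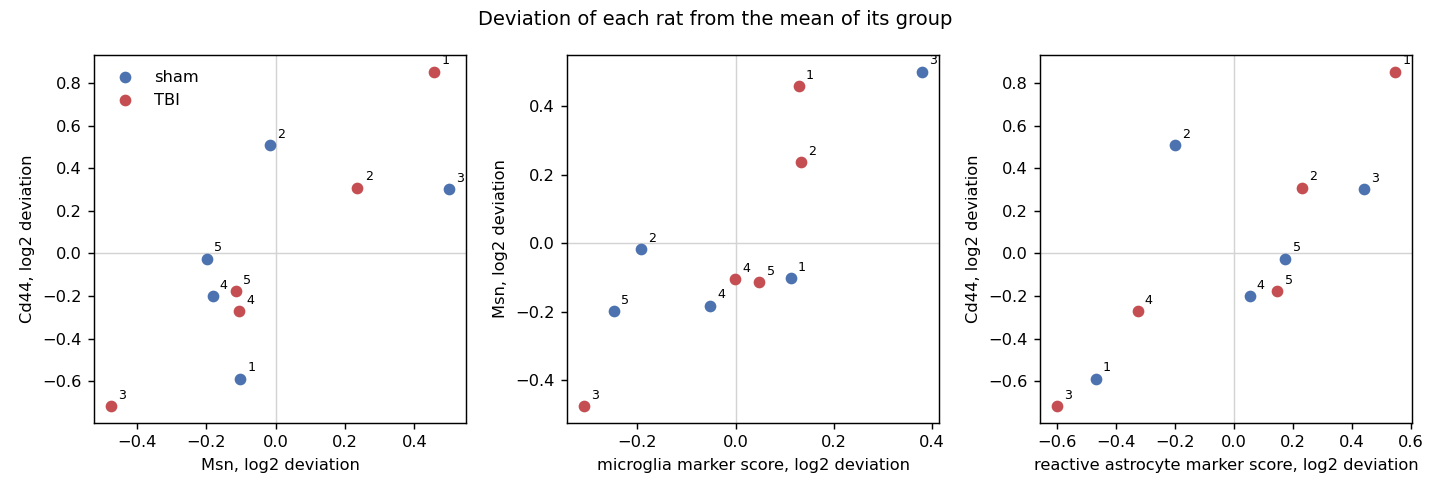
Deviation of each rat from the mean of its own group in log2 CPM, sham in blue and TBI in red with replicate numbers, for Cd44 against Msn (left), Msn against the mean of the microglia markers (middle) and Cd44 against the mean of the reactive astrocyte markers (right). Pearson's r was 0.807, 0.821 and 0.778, and on the vertical axis TBI 3 is the lowest rat of each panel and TBI 1 the highest or second to sham 3.

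Markers of glial cells, in which Cd44 and Msn are known to be made, were read in the same rats. Counts of markers with an unadjusted p under 0.05, here and for the other cell types, are to be read beside the 7.89% of all rows. Of 12 microglia markers, 6 had an unadjusted p under 0.05, all higher in TBI, and the summed list ranged from 255 to 384 CPM in sham and from 302 to 414 CPM in TBI. The log2 change was 0.31 for the complement gene C1qa, which was among the 6, and 0.27 for the receptor gene Csf1r, whose unadjusted p was above 0.05. Of 8 reactive astrocyte markers, 6 were higher and 1, Serpina3n, was lower at an unadjusted p under 0.05, and the summed list ranged from 816 to 1707 CPM in sham and from 1028 to 2487 CPM in TBI. Gfap, the intermediate filament of astrocytes, was 1016 ± 346 CPM in sham and 1800 ± 523 CPM in TBI (SD, n = 5 each). The log2 change of Vim, another intermediate filament gene, was 1.21 and that of the sphingosine 1-phosphate receptor gene S1pr3 was 0.60. The endothelial list, which includes Cldn5, Tie1 and Flt1, ranged from 77.2 to 105 CPM in sham and from 88.7 to 102 CPM in TBI, and 0 of its 9 genes had an unadjusted p under 0.05.

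Markers of other cell types were read in the same way. Of 5 ependymal markers, 3 were higher in TBI at an unadjusted p under 0.05, and the summed list ranged from 12.6 to 23.5 CPM in sham and from 21.4 to 34.6 CPM in TBI. Foxj1, a regulator of motile cilia, was 9.08 ± 2.91 CPM in sham and 17.98 ± 4.65 CPM in TBI (SD, n = 5 each), a log2 change of 0.97. The next by count, Ak7 and Cfap126, had log2 changes of 0.49 and 0.22. Of 7 meningeal and fibroblast markers, 3 were higher in TBI at an unadjusted p under 0.05. The summed list ranged from 6.56 to 20.3 CPM in sham and from 12.7 to 20.7 CPM in TBI. Col1a1, a collagen gene with the highest count of the list, was among the 3, with a log2 change of 0.43. Lum and Dcn, the next by count, had log2 changes of -0.95 and 0.91, each with an unadjusted p above 0.05. With a higher level in TBI, the unadjusted p was under 0.05 for 1 of 6 choroid plexus markers, 2 of 9 general astrocyte markers and 2 of 5 CA1 markers. With a lower level in TBI, it was under 0.05 for 1 of 6 CA3 markers. It was under 0.05 for 0 of 6 neuronal, 0 of 6 oligodendrocyte, 0 of 3 dentate granule cell and 0 of 4 leukocyte markers. The part of these cells in the values of Cd44 and Msn was not tested. By edgeR's quasi-likelihood method 0 of the markers in any list reached an adjusted p under 0.05, and no list held a marker at 0 in all libraries.

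With the group means removed, Msn followed the mean of the microglia markers over the 10 rats with r = 0.821 (exact permutation p = 0.00319; 0.0639 when adjusted over 20 tests of 5 genes against 4 lists). Spearman's rho was 0.855 (exact permutation p = 0.00479; adjusted p = 0.0958), and r was 0.709 without sham 3 and TBI 1. Msn also gave r = 0.816 with the general astrocyte markers and 0.787 with the reactive ones, each with an adjusted exact permutation p of 0.0969. Without sham 3 and TBI 1 these were 0.712 and 0.559. Against the endothelial markers Msn gave r = 0.329 (exact permutation p = 0.364; adjusted p = 0.807), and 0.720 without sham 3 and TBI 1.

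Cd44 gave r = 0.778 with the reactive astrocyte markers (exact permutation p = 0.0194; adjusted p = 0.0969), and 0.544 without TBI 1 and TBI 3. Against the microglia markers Cd44 gave r = 0.360 (exact permutation p = 0.301; adjusted p = 0.807). With the general astrocyte markers r was 0.614 (exact permutation p = 0.102; adjusted p = 0.407). With the endothelial markers it was 0.224 (exact permutation p = 0.525; adjusted p = 0.807). Differences between the correlations of Cd44 or of Msn with these lists were not tested. For Ezr, Rdx and Nf2 the correlation with each of the 4 lists lay between -0.156 and 0.429, with adjusted exact permutation p of 0.807 or more. No correlation with a marker list passed the correction. The part that the number of glial cells had in the values of Cd44 and Msn was not tested, and TBI 1 and TBI 2, the highest rats for both genes, were also those with the highest CA1 markers, the part of which was not tested either.

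**Figure D3:**
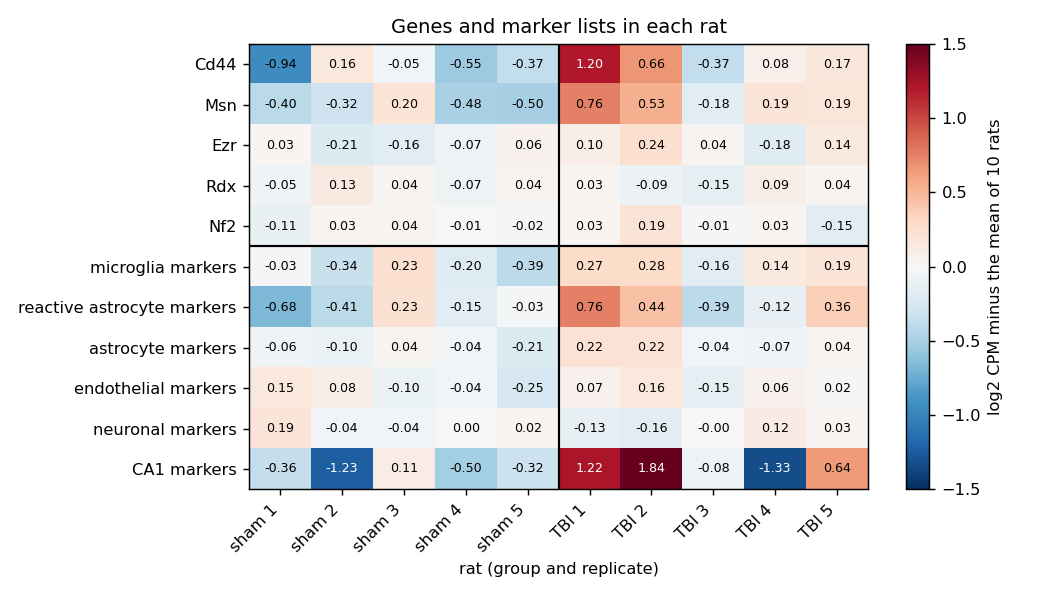
Log2 CPM of the 5 genes and mean log2 CPM of 6 marker lists in each rat, minus the mean of the 10 rats; red is above and blue below that mean, each cell prints its value, and the colours end at 1.5 in both directions. TBI 1 and TBI 2 are red for Cd44, Msn, the microglia, the reactive astrocyte and the CA1 markers, and sham 3 is the sham rat with the highest Msn, microglia and reactive astrocyte values.

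The rest of the pathway was read from 6 lists of 83 genes, of which 67 had a row and all 67 were tested. By edgeR's quasi-likelihood method 0 reached an adjusted p under 0.05, and 3 had an unadjusted p under 0.05, all higher in TBI. The log2 change was above 0 for 33 genes and below 0 for 34, and 3 of 67 is to be read beside the 7.89% of all rows.

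Hyaluronan, the ligand of CD44, is made by Has1, Has2 and Has3 and degraded by the hyaluronidases Hyal1, Hyal2 and Hyal3. Of 10 genes of its synthesis, breakdown and binding, 0 had an unadjusted p under 0.05, and their median log2 change was -0.02. Hyal2 had the highest count of the list and a log2 change of 0.09. Has1, Has2 and Has3 had group means of 0.191 to 0.290 CPM, so that a change in them could not be detected at this depth.

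Of 8 other ligands and sheddases of CD44, 1 had an unadjusted p under 0.05, and the median log2 change was 0.09. Spp1, the gene of the CD44 ligand osteopontin, was 0.800 ± 0.936 CPM in sham and 2.45 ± 0.998 CPM in TBI (SD, n = 5 each), a log2 change of 1.49 ± 0.609 (SE; edgeR's quasi-likelihood test, unadjusted p = 0.0371; adjusted p = 0.614). Its counts ranged from 5 to 128. Adam10, which cleaves the outer part of CD44, had a log2 change of 0.09.

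Of 12 genes that open or close ERM proteins, 0 had an unadjusted p under 0.05, and the log2 changes ran from -0.11 to 0.14. The list holds Rhoa and Rock2 of the kinase route, with log2 changes of -0.08 and -0.11, and Pip5k1c, one of the enzymes that make PIP2, with 0.06. Rock1 had no row and could not be read. Arhgdia, a GDP dissociation inhibitor that ERM proteins bind, had the highest count of the list and a log2 change of 0.14 ± 0.0917 (SE).

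Of 12 membrane partners and adaptors of ERM proteins, 1 had an unadjusted p under 0.05, and the median log2 change was -0.01. Icam1, an adhesion molecule of endothelium and glia, was 3.12 ± 0.508 CPM in sham and 4.32 ± 0.761 CPM in TBI (SD, n = 5 each), a log2 change of 0.46 ± 0.150 (SE; edgeR's quasi-likelihood test, unadjusted p = 0.00686; adjusted p = 0.487). Icam5, its neuronal relative, had the highest count of the list and a log2 change of 0.01. Nherf1, an adaptor of ERM proteins, had a log2 change of 0.16 and Pdpn, the gene of podoplanin, 0.18, and neither had an unadjusted p under 0.05.

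Of 16 genes of the merlin and Hippo route, 1 had an unadjusted p under 0.05, and the median log2 change was 0.01. Lats2, a kinase that holds back the coactivators YAP and TAZ, was 42.9 ± 5.08 CPM in sham and 50.6 ± 8.52 CPM in TBI (SD, n = 5 each), a log2 change of 0.24 ± 0.110 (SE; edgeR's quasi-likelihood test, unadjusted p = 0.0430; adjusted p = 0.621). The YAP targets Ccn1 and Ccn2 had log2 changes of 0.66 and 0.38, with unadjusted p of 0.0648 and 0.123 in the same test. Ankrd1, the other YAP target of the list, was lower in TBI, with a log2 change of -0.21 (same test, unadjusted p = 0.515). Depth was low for Ccn1 (2 to 38 counts per library) and for Ankrd1 (3 to 16 counts). Yap1, the gene of YAP itself, had no row and could not be read. Of 9 other FERM proteins 0 had an unadjusted p under 0.05, with a median log2 change of -0.03 and a value of -0.07 for Epb41l1, the one with the highest count.

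**Figure D4:**
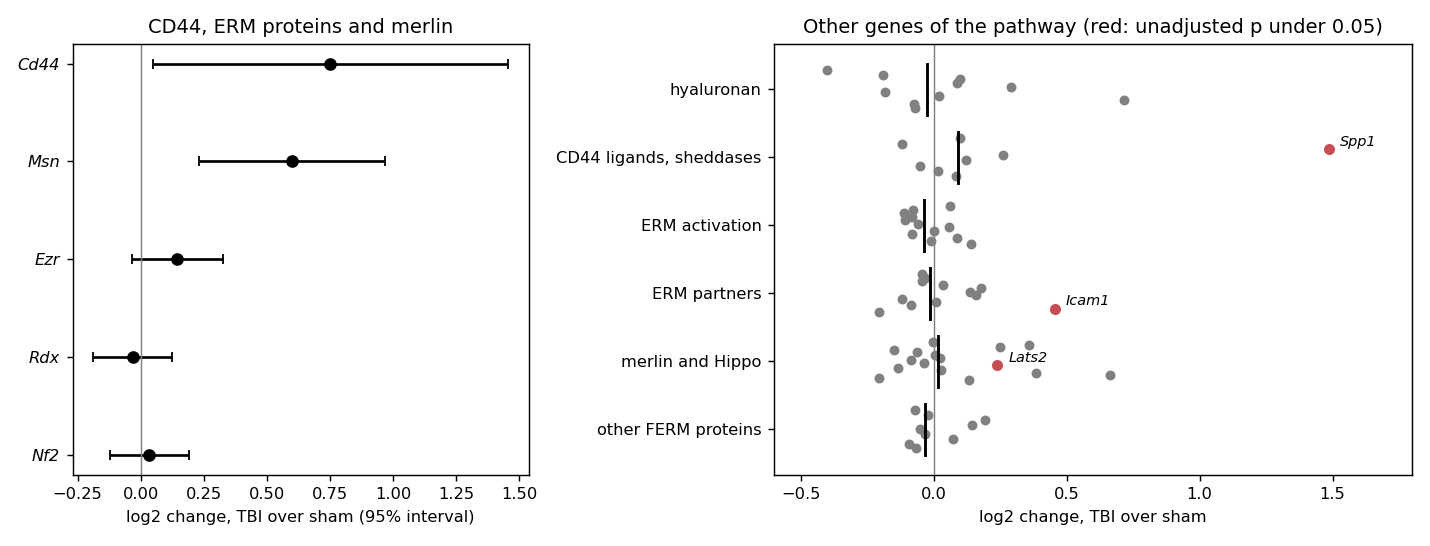
Left, fitted log2 change of the 5 genes, TBI over sham, with 95% intervals; right, fitted log2 change of the 67 pathway genes by list, with a black bar at the median of each list and red points for an unadjusted p under 0.05. The intervals of Cd44 (0.05 to 1.45) and Msn (0.23 to 0.97) lie above 0 before any adjustment, and Spp1, Icam1 and Lats2 are the red points.

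Genes that varied with each of the 5 from rat to rat were looked up among 8994 genes with a mean count of at least 100, by Pearson's r of log2 CPM over the 10 rats with group means removed. With so many candidates and few rats the top values are high by selection, and they are given as a description with no p. For Cd44 these were Igtp (0.973), an interferon-inducible GTPase, Psat1 (0.966), an enzyme of serine synthesis, and Sft2d2 (0.965), a vesicle transport protein. For Msn they were Lamb2 (0.984), a laminin of basement membranes, Mpeg1 (0.976), a pore-forming protein of macrophages and microglia, and Aqp4 (0.971), the water channel of astrocyte endfeet.

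For Ezr they were Rasl11b (0.950), a small GTPase, Dusp5 (0.942), a phosphatase of ERK kinases, and Sfrp2 (0.904), a secreted Wnt modulator. For Rdx they were Gtf2b (0.934), a general transcription factor, Xylb (0.928), a xylulose kinase, and Ubxn8 (0.925), a protein of the endoplasmic reticulum. For Nf2 they were Zfp652 (0.980), a zinc finger protein, Agap1 (0.962), a regulator of Arf GTPases, and Mbtps1 (0.941), a protease of the Golgi. The 5 short lists had no gene in common.

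The direction of Cd44, Msn and Ezr was the same under each of the 20 alternatives. Scaling by total counts alone, in which the ribosomal RNA of sham 4 and sham 5 enters the library size, shifted the median over all rows to a log2 change of 0.50. Under it the log2 change was 1.21 for Cd44, 1.06 for Msn and 0.46 for Rdx, which had been -0.03, so that Rdx lay near the median of all rows under both scalings.

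**Figure D5:**
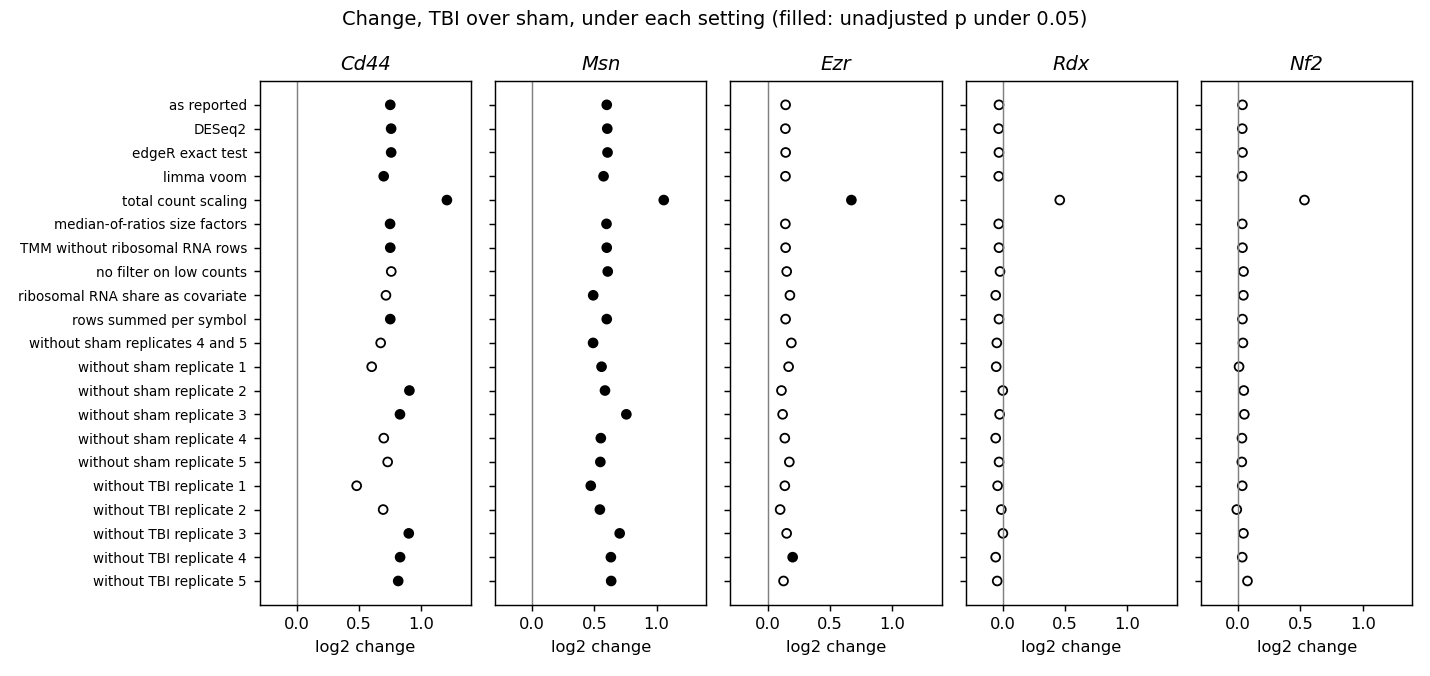
Fitted log2 change of each gene, TBI over sham, as reported and under 20 alternatives, with filled points for an unadjusted p under 0.05. Msn is filled in every row, Cd44 in part of them, Ezr under total count scaling and without TBI replicate 4, and Rdx and Nf2 in none; total count scaling shifts all 5 genes to the right.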

How the data were processed

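The authors deposited raw read counts, 1 row per RefSeq RNA record, for 5 sham and 5 TBI rats, not normalised and not pooled, from poly-A RNA read as single 36-base reads. Per the labels and the study's methods, reads were aligned to rn4 with BWA and counted with a custom script. The methods name Ensembl transcripts although the rows are RefSeq records, do not say whether strand was used, and give fewer control rats than the labels do, without saying which. All 5 were used. The empty entry and the unmapped reads (median 22.2%) were left out, which left 32041 rows.

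Rows whose total reached the 30th percentile (44 counts) were tested with edgeR 4.0.16 (R 4.3.3), using TMM, robust dispersions and the quasi-likelihood F test without covariates, and p-values were adjusted over 22431 rows by the Benjamini-Hochberg method. The standard error is the log2 change divided by the root of F. Log2 CPM for correlations used a prior count of 2. Rats were permuted exactly, between groups for ratios and within groups for correlations (14400). Alternatives included DESeq2 1.42.0 and limma 3.58.1. Both edgeR tests, DESeq2, limma voom and the permutations were first run on simulated data, with the default scaling and filter. Other scalings, filters and the covariate were not. RefSeq symbols matched 54.2% of records. The labels give no batch, and replicate numbers follow the order of deposition and pair no rats. Rats were separate animals. The 5 genes, the gene lists and the tests were chosen with earlier results of these data known. Named pathway genes were those with an unadjusted p under 0.05 and the one with the highest count in each list, named markers the 3 with the highest count in each list described (1 is not reported here), and named correlates the top 3. Has1, Has2, Has3, Hyal1, Hyal3, Rhoa, Rock2, Pip5k1c, Nherf1, Pdpn, Ccn1, Ccn2, Ankrd1 and Serpina3n were named after their values were seen, for what they do in the pathway or, for Serpina3n, as an exception.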

Additional observations from a re-analysis of the deposited data

Results flagged for a closer look

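In a group of 5 rats, a highest or lowest rat was singled out where its gap to the nearest other rat was more than 0.710 of the group's whole range (Dixon's test at 95%). Of 26 groups of values examined, 3 held such a rat, and chance singles out about 1 in 20 groups, which is 1.3 of 26. All 3 cases were sham 3, and they come from values that vary together. Its Msn level was 11.6 CPM, against 7.12 to 8.08 CPM in the other sham rats. Its ratio of Msn to Rdx was 0.245, against 0.151 to 0.172. Its summed reactive astrocyte markers reached 1707 CPM, against 816 to 962 CPM. Gfap made up most of this sum, with a sham mean of 1016 CPM of 1068 CPM for the list. In the mean log2 CPM of the list, minus the mean of all rats, sham 3 was at 0.232. The other sham rats ranged from -0.677 to -0.0335 in that mean, so that sham 3 was highest there but stood less apart. Without sham 3 the log2 change of Msn was 0.76 in place of 0.60.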

How the results depend on the processing

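No paired analysis was possible because replicate numbers follow the order of deposition, each rat is in 1 group, and the labels name no litter or day. In 20 alternatives no gene of the 5 passed an adjusted p of 0.05. Of the 5, the number with an unadjusted p under 0.05 was 2, and 1 without the filter on low counts, with the ribosomal RNA share as a covariate, or without sham 4 and sham 5, and 3 under total count scaling. The number with an unadjusted p under 0.001 was 0, and 1 with DESeq2, edgeR's exact test or total count scaling. Of all 22431 rows, 44 were under 0.001, and 113, 119 and 189 were in these 3 settings in the same order. Of the pathway genes 3 had an unadjusted p under 0.05, and 1 did with the covariate. Over all rows 1769 did, and 992 with the covariate, while DESeq2 gave 3 rows an adjusted p under 0.05. Total count scaling, whose shift of all genes is described above, gave 15 pathway genes and 3788 rows an unadjusted p under 0.05 and 1 and 92 an adjusted one, with 99.3% of the former rows higher in TBI in place of 62.0%, and a log2 change of 0.46 for Rdx.

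Under total count scaling the correlations between genes were 0.904 for Cd44 and Msn, 0.706 for Cd44 and Ezr, 0.781 for Cd44 and Rdx, 0.790 for Cd44 and Nf2, 0.862 for Msn and Ezr, 0.894 for Msn and Rdx, 0.916 for Msn and Nf2, 0.917 for Ezr and Rdx, 0.933 for Ezr and Nf2 and 0.962 for Rdx and Nf2. In this scaling the ribosomal RNA of sham 4 and sham 5 enters the library size and shifts all genes of a rat together. Nothing is therefore read from these values about whether the genes vary together. Correlations near 0 changed sign with Spearman's rho for Cd44 and Ezr (0.103), Msn and Ezr (-0.0788) and Rdx and Nf2 (0.188), and without sham 4 and sham 5 for Cd44 and Ezr (0.00906).

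Leaving out 1 rat at a time gave log2 changes of 0.48 to 0.90 for Cd44, 0.47 to 0.76 for Msn, 0.10 to 0.20 for Ezr, -0.06 to -0.00054 for Rdx and -0.012 to 0.0738 for Nf2, which was negative without TBI 2. Of the 5 genes, 1 to 3 had an unadjusted p under 0.05 and 0 to 1 under 0.001. Over all rows, 9 (without sham 2) to 196 (without sham 3) were under 0.001. Of the pathway genes 2 to 5 had an unadjusted p under 0.05 and 0 to 1 an adjusted one. Of all rows 1162 (without sham 2) to 2571 (without sham 3) had an unadjusted p under 0.05, and 0 to 12 an adjusted one, with 5 without sham 3 and 12 without TBI 3. The log2 ratio of Cd44 to Msn ran from -0.0203 to 0.233. The correlation ran from -0.227 to 0.162 for Cd44 and Ezr, -0.152 to 0.232 for Msn and Ezr, -0.0102 to 0.459 for Msn and Rdx, -0.663 to 0.115 for Ezr and Nf2 and -0.217 to 0.248 for Rdx and Nf2. The cause of these shifts was not tested. Of the 5 genes, Cd44 had the fewest counts, with 52 and 64 counts in sham 4 and sham 5.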
